A study of Mus musculus with 9 samples.

Results

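The core circadian clock genes of mouse liver were followed over 9 whole-transcript microarrays, 3 for each of 3 groups. Of 10 listed symbols, 9 were measured among 22180 genes: Arntl (also called Bmal1), Clock, Npas2, Per1, Per3, Cry1, Nr1d1, Nr1d2 and Dbp. Each stands for the single-symbol probe set with the highest mean over the 9 arrays. For these 9 it was the only such probe set. The probe set of Per2 carries a further gene symbol and was not used here.

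The mice were C57BL/6 animals that entered the study at 5 weeks of age, although their strain is entered as C56BL/6J, and they lived under 12 h of light and 12 h of dark. The regular-diet group (RD) and the high-fat diet group (HFD) received vehicle, and the last group (GFB) ate the high-fat diet and received an extract of ginseng flower buds at 500 mg/kg, all by mouth daily for 12 weeks. Livers of all 3 groups were taken after a night without food. The sources used here give neither the hour of dissection nor the sex of the mice nor whether the 3 arrays of a group came from separate mice. P-values therefore measure only the spread between these samples, which may be technical, and 3 arrays per group set the precision.

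The clock is a loop of transcription. ARNTL pairs with CLOCK or with its relative NPAS2, binds E-boxes and activates Per, Cry, Nr1d and Dbp genes. PER and CRY proteins then repress that activator, NR1D1 and NR1D2 (REV-ERB alpha and beta) repress Arntl and Npas2 through ROR elements, and DBP activates genes with D-boxes. In liver the transcripts of the activators and of the Per genes peak at different times of day, and feeding times can shift them, so a level measured once per animal depends on the hour of collection.

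Some elements through which these links act were looked for in the promoters, taken from the RefSeq annotation of GRCm38.p6 as windows from 250 bases before to 50 bases after each transcript start. All 9 genes had at least 1 window. Short stretches are shown because each holds such an element, with the element in capitals, 5′ to 3′ on the strand of the gene.

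Per1 (E-box, chr11:69098771-69098800, plus strand): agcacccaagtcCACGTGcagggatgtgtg
Cry1 (E-box, chr10:85185097-85185126, minus strand): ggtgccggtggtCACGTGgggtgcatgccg
Arntl (ROR element core, chr7:113207530-113207559, plus strand): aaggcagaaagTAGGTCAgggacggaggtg
Per1 (loose D-box, chr11:69098914-69098943, plus strand): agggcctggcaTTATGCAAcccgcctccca
Per3 (D-boxes, chr4:151044806-151044880, minus strand): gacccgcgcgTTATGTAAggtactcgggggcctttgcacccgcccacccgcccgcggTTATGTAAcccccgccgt

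On both strands, the E-box CACGTG was found for Per1 and Cry1, 2 of the 9 genes, and in 8.09% of the 27025 genes with a window. Counted from the transcript start, it began at position -166 for Per1 and -60 for Cry1. The ROR element core TAGGTCA was found only for Arntl, at position 31 of a further transcript window, and in 2.97% of genes. The D-box TTATGTAA was found only for Per3, at positions -205 and -158, and in 1.11% of genes. The looser form TTATGNAA, which includes every D-box, was also found for Per1 at position -24, and in 3.99% of genes. The cyclic AMP element TGACGTCA was found for none of the 9 and in 2.03% of genes. A match describes letters in these windows and not a bound site.

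Correlation between arrays, taken across genes, was 0.991 to 0.994 inside a group and 0.987 to 0.993 between arrays of different groups, with array medians of 4.34 to 4.38 on the log2 scale. Hepatocyte markers identified the tissue, with a mean over 9 markers between 11.44 and 11.75 in every array. Markers of neutrophils (4 of 4), lymphocytes (4 of 5), bile duct cells (2 of 4), white adipose tissue (2 of 3) and exocrine pancreas (2 of 4) lay under the median of all gene means, 4.74, in every array. Values under 4.74 are not told from background here. In whole tissue, fewer cells of a type and less RNA per cell cannot be told apart.

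None of the 9 clock genes passed the test between any 2 groups. For most of them the larger part of the variation lay between arrays of the same group. That is also usual over all genes, whose median share between groups was 28.1%. Calls come from limma on all 9 arrays, with Benjamini-Hochberg adjustment over all genes and a threshold of 0.05. With the diet (HFD minus RD) 0 of 9 passed, where 1.34% of all genes did. For extract against the high-fat diet 0 of 9 passed beside 0.00451% of all genes, and for extract against the regular diet 0 of 9 beside 0.442%. The F test over the 3 groups called 0 of 9 beside 0.78%. At an unadjusted p under 0.05 the counts were 0, 1, 1 and 2 of 9, and the shares of all genes were 13.3%, 5.98%, 12.0% and 12.3%. The 3 comparisons share arrays, so their values are set side by side and not counted as independent. The medians of the 9 log2 fold changes were -0.15, 0.19 and 0.13 in the 3 comparisons, beside medians of all genes of 0, -0.002 and 0.001.

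**Figure D1:**
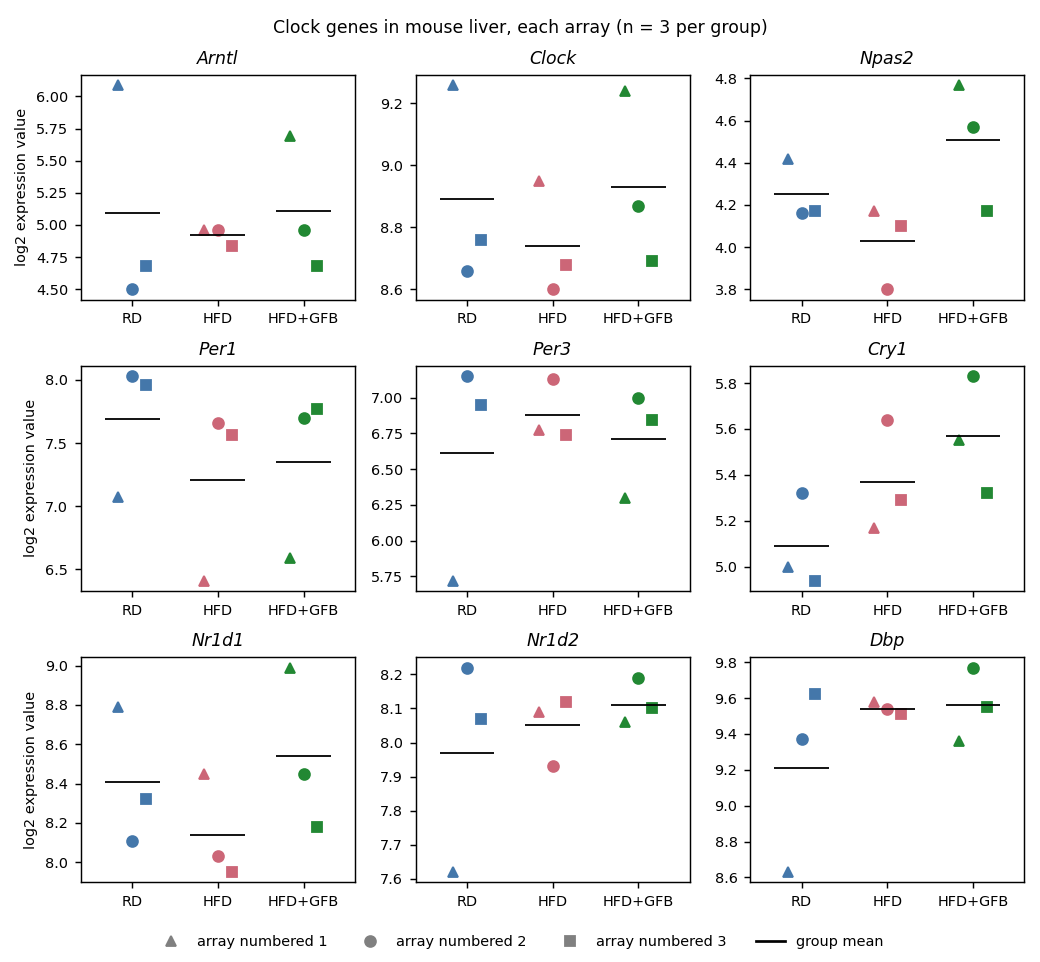
Log2 expression value of each of the 9 clock genes (vertical axes, scaled per gene) in the 9 arrays, by group; triangles, circles and squares mark the arrays numbered 1, 2 and 3 in the labels, and bars the group means. The triangles of Per1 lie between 6.41 and 7.07, below all 6 other arrays, and those of Clock between 8.95 and 9.26, above all 6.

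Among the activators, Arntl read 6.09, 4.50 and 4.68 in regular-diet arrays 1, 2 and 3, then 4.96, 4.96 and 4.84 on the high-fat diet, and 5.69, 4.96 and 4.68 with extract. The groups overlapped, and the highest arrays were array 1 of the regular diet and array 1 with extract, whereas the high-fat diet arrays lay close together (SD 0.07, against 0.87 and 0.52). The deposited values of high-fat diet arrays 1 and 2 and extract array 2 are equal to every digit given, and 3 of the 9 values lie under 4.74. The diet difference was -0.17 ± 0.39 (SE, n = 3 per group; 95% interval -1.05 to 0.71; adjusted p = 0.899 by limma). That direction rested on regular-diet array 1, without which it was 0.33 (adjusted p = 0.625).

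Clock, the partner of Arntl, read 9.26, 8.66 and 8.76 on the regular diet, 8.95, 8.60 and 8.68 on the high-fat diet, and 9.24, 8.87 and 8.69 with extract. In each group array 1 was the highest, and the 3 arrays numbered 1 stood above the other 6. The extract difference on the high-fat diet was 0.19 ± 0.19 (95% interval -0.23 to 0.60, adjusted p = 0.916 by limma), and 0.036 without extract array 1. The diet difference was -0.15 ± 0.19, and 0.04 without regular-diet array 1.

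Npas2, the alternative partner of Arntl, lay near background, with 8 of 9 values under 4.74. It read 4.42, 4.16 and 4.17 on the regular diet, 4.17, 3.80 and 4.10 on the high-fat diet, and 4.77, 4.57 and 4.17 with extract. Extract arrays 1 and 2 were the highest of all 9, and extract array 3 equalled high-fat diet array 1 and regular-diet array 3, so the extract and high-fat diet arrays overlapped by that tie. The difference of 0.48 ± 0.16 (95% interval 0.12 to 0.84) had an unadjusted p of 0.0142 and did not pass (adjusted p = 0.728 by limma).

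Among the repressors, Per1, a period gene that also responds to glucocorticoids, read 7.07, 8.03 and 7.96 on the regular diet, 6.41, 7.66 and 7.56 on the high-fat diet, and 6.59, 7.70 and 7.77 with extract. Array 1 was the lowest of its group each time, and arrays 2 and 3 of each group lay close together. The diet difference was -0.48 ± 0.42 (95% interval -1.42 to 0.47, adjusted p = 0.697 by limma). It ranged from -0.79 without regular-diet array 1 to -0.078 without high-fat diet array 1. It was -0.39 ± 0.09 without the 3 arrays numbered 1 (adjusted p = 0.176), an alternative chosen after seeing the data.

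Per3, a period gene with a smaller part in the loop, read 5.72, 7.15 and 6.95 on the regular diet, 6.77, 7.13 and 6.74 on the high-fat diet, and 6.30, 7.0 and 6.84 with extract. The lowest arrays were array 1 of the regular diet and array 1 with extract, and array 2 was the highest of each group. The diet difference of 0.27 ± 0.34 (adjusted p = 0.796 by limma) was -0.17 without regular-diet array 1.

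Cry1, a cryptochrome that represses the activator, read 5.00, 5.32 and 4.94 on the regular diet, 5.17, 5.64 and 5.29 on the high-fat diet, and 5.55, 5.83 and 5.32 with extract. It was the only member whose groups did not overlap in any comparison: the 3 extract arrays lay above the 3 regular-diet arrays, by less than 0.01 between the nearest arrays. Such a separation held for 14.6% of all genes in that comparison, for 15.8% with the diet and for 9.69% with extract on the diet, where 0 of 9 members separated. The difference from the regular diet was 0.48 ± 0.16 (95% interval 0.11 to 0.85, unadjusted p = 0.016) and did not pass (adjusted p = 0.285 by limma). The order of the means was regular diet 5.09 ± 0.20 (SD, n = 3), high-fat diet 5.37 ± 0.25 and extract 5.57 ± 0.25, and neighbours in that order did not differ past the threshold (adjusted p = 0.519 and 0.891 by limma).

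The nuclear receptor Nr1d1, which represses Arntl, read 8.79, 8.11 and 8.32 on the regular diet, 8.45, 8.03 and 7.95 on the high-fat diet, and 8.99, 8.45 and 8.18 with extract. Array 1 was the highest in each group, as for Clock. With extract on the high-fat diet the difference was 0.40 ± 0.24 (95% interval -0.13 to 0.93, adjusted p = 0.860 by limma), the groups overlapped, and it was 0.17 without extract array 1.

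Its relative Nr1d2 read 7.62, 8.22 and 8.07 on the regular diet, 8.09, 7.93 and 8.12 on the high-fat diet, and 8.06, 8.19 and 8.10 with extract. Apart from regular-diet array 1, the low value, all arrays lay within 0.3 of each other. The 95% interval of the diet difference, -0.24 to 0.39, was the narrowest of the 9 genes.

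Dbp, the output factor that activates D-box genes, read 8.63, 9.37 and 9.62 on the regular diet, 9.58, 9.54 and 9.51 on the high-fat diet, and 9.36, 9.77 and 9.55 with extract. Regular-diet array 1 was again the low value and the high-fat diet arrays hardly varied (SD 0.03). The diet difference of 0.33 ± 0.22 (adjusted p = 0.578 by limma) was 0.04 without that array, and the difference with extract on the diet was 0.02 ± 0.22 (95% interval -0.47 to 0.52).

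**Figure D2:**
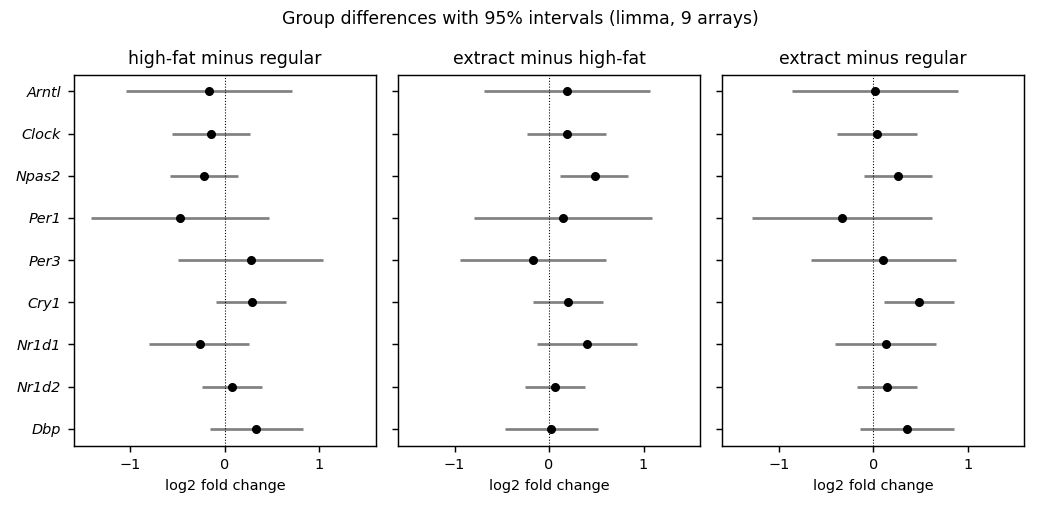
Log2 fold change (horizontal axis) of each clock gene in the 3 comparisons, with points for the limma estimate and lines for its 95% interval. All intervals include 0 except Npas2 with extract against the high-fat diet (0.12 to 0.84) and Cry1 with extract against the regular diet (0.11 to 0.85), neither of which passed after adjustment.

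The spread within groups was wide for most members. The within-group SD was 0.64 for Per1, 0.59 for Arntl and 0.51 for Per3, each above that of at least 99.4% of all genes, whose median was 0.13. It was smallest for Nr1d2 (0.20), which still exceeded 78.1% of genes. Relative to each gene's mean over the 9 arrays, the 3 activators averaged 0.54 in regular-diet array 1 and 0.51 in extract array 1, and from -0.28 to 0.08 in the other 7. The 6 measured repressor and output genes averaged -0.42 in regular-diet array 1, the lowest of the 9. In high-fat diet array 1 and extract array 1 they averaged only -0.14 and -0.08. Nr1d1, 1 of these 6, went the other way in all 3 arrays numbered 1, at 8.79, 8.45 and 8.99 against its mean of 8.36. In high-fat diet array 1 Per3 (6.77 against 6.73), Nr1d2 (8.09 against 8.04) and Dbp (9.58 against 9.44) were also above their means. In extract array 1 Cry1 (5.55 against 5.34) and Nr1d2 (8.06 against 8.04) were. As a description over 9 arrays that share 3 groups, Arntl correlated with Clock at r = 0.90, with Nr1d1 at 0.81, with Per3 at -0.92, with Nr1d2 at -0.79 and with Dbp at -0.76. Its other correlations were -0.64 with Per1, 0.56 with Npas2 and -0.08 with Cry1. After the group means were taken out, the 8 values were, in the same order, 0.91, 0.85, -0.93, -0.86, -0.87, -0.74, 0.66 and -0.11.

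The variation followed the array number of the labels for several members. This was seen in the values first and then computed, so it is no independent evidence, and the sources used here do not say what the number stands for. The sum of squares of Per1 over the 9 arrays lay 12.9% between groups, 85.9% between numbers within groups and 1.2% in the remainder. The share between numbers was 79.1% for Clock, 66.9% for Nr1d1, 65.0% for Per3 and 61.7% for Arntl, beside a median of 19.5% over all genes, and 33 of all genes had a share of at least that of Per1. Npas2 (53.0%) and Cry1 (51.8%) had most of theirs between groups. For the rest the share between groups ran from 3.1% (Arntl) to 27.6% (Dbp), beside a median of 28.1% over all genes.

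**Figure D3:**
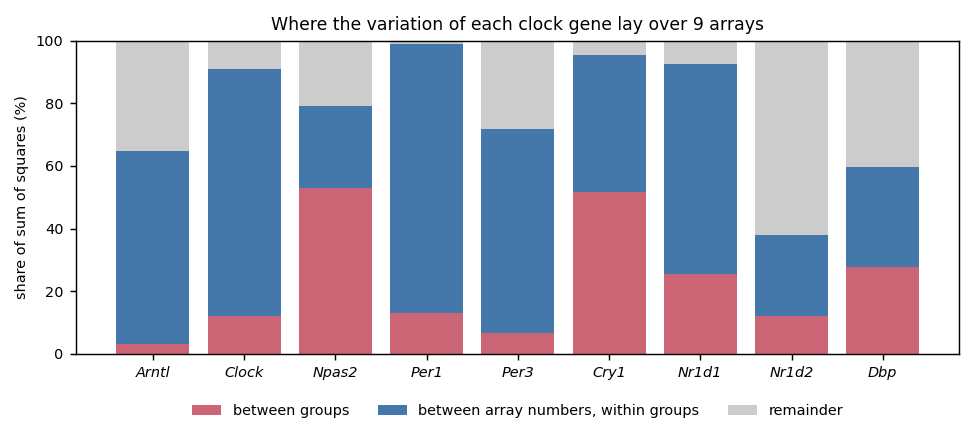
Share of the sum of squares of each clock gene over the 9 arrays, in percent, between groups, between array numbers within groups, and in the remainder. The number holds 85.9% for Per1 and 79.1% for Clock, and the group holds most for Npas2 (53.0%) and Cry1 (51.8%).

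Array 1 was the highest of its group in all 3 groups for Clock, Npas2 and Nr1d1, and the lowest in all 3 for Per1. Those are 4 of 9 members, where 7.33% of all genes met the same condition. Npas2, 1 of the 4, lay near background, so its order within groups is uncertain. Array 2 met it for Per3 and Cry1, 2 of 9 beside 5.25% of all genes, and array 3 for 0 of 9 beside 5.76%. For Clock and Per1 the 3 arrays numbered 1 did not overlap the other 6, as held for 2.2% of all genes. In a limma fit with the group and the number as terms, Per1 was lower in array 1 than in the mean of arrays 2 and 3, with a difference of -1.09 ± 0.08 on the log2 scale (adjusted p = 0.0208). The differences were -0.93 on the regular diet, -1.19 on the high-fat diet and -1.15 with extract. Per1 was the only gene of 22180 that passed (0.00451%). Its difference lay between -1.17 and -1.04 when any 1 array was left out, and it then no longer passed in any of these 9 fits (adjusted p from 0.0772 to 0.507). Nr1d1 (0.57 ± 0.09) and Clock (0.44 ± 0.08) ranked 13 and 25 by p among all genes and did not pass (adjusted p = 0.544 each). Arntl stood at 0.81 ± 0.23 and Per3 at -0.71 ± 0.19, with high-fat diet differences of 0.06 and -0.16 and regular-diet differences of 1.51 and -1.34.

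Liver genes with known daily rhythms outside the loop were read the same way. Of 11 measured, array 1 was the highest or the lowest in all 3 groups for 10, beside 7.33% of all genes, and 7 were among the 100 genes with the smallest p for the number. Noct (nocturnin), an enzyme named for its night-time peak, read 5.41, 7.04 and 7.13 on the regular diet, 4.83, 5.76 and 5.97 on the high-fat diet, and 5.38, 6.06 and 6.35 with extract. Array 1 was thus the lowest of each group, and the mean difference of -1.18 ± 0.15 ranked 3 by p (adjusted p = 0.306 by limma). Usp2, a ubiquitin protease (-1.11 ± 0.19), and Cyp7a1, the rate-limiting enzyme of bile acid synthesis (-1.04 ± 0.19), were also lower in array 1 without passing. Wee1, Nampt, Alas1, Cyp2a5, Upp2 and Ppara were lower too, and only Elovl3, a fatty acid elongase, was higher (0.97 ± 0.21). Cyp2a5 lay under 4.74 in every regular-diet array and in high-fat diet array 1 (4.40), so its order on the regular diet is uncertain. Gys2, a glycogen synthase, was lower in array 1 on average (-0.58 ± 0.18), but not the lowest of every group.

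**Figure D4:**
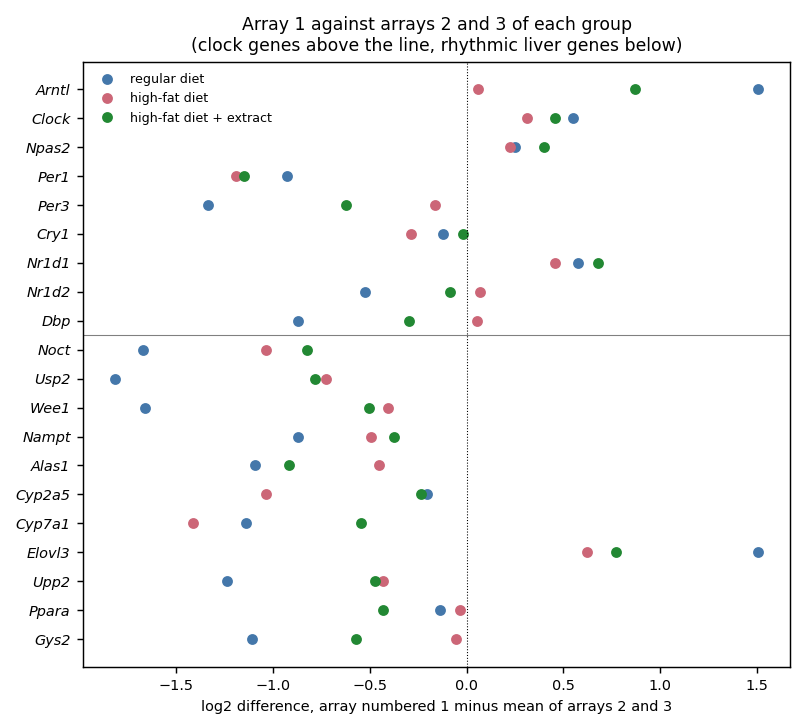
Log2 difference (horizontal axis) of the array numbered 1 from the mean of arrays 2 and 3, for each group (colours), in the 9 clock genes and 11 rhythmic liver genes. The points of Per1 lie between -1.19 and -0.93 and those of Elovl3 between 0.62 and 1.51, while those of Nr1d2 and Dbp lie on both sides of 0.

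Of 14 measured further regulators of the loop, none passed in any comparison, with 2, 1 and 1 at an unadjusted p under 0.05. The smallest p with the diet belonged to Bhlhe40, an E-box repressor (0.71 ± 0.20, adjusted p = 0.144 by limma), which stood at the same 0.71 ± 0.20 with extract against the regular diet (adjusted p = 0.202). It read 8.06, 8.58 and 7.96 on the regular diet, 8.82, 9.13 and 8.79 on the high-fat diet, and 8.62, 9.27 and 8.83 with extract. All 6 arrays on the high-fat diet were above the 3 on the regular diet, with the nearest arrays at 8.62 and 8.58. Groups did not overlap for 15.8% of all genes with the diet and for 14.6% with extract against the regular diet. The share for 6 arrays against 3 was not computed. Bhlhe40 was named for its small p in these comparisons, so its separation is no further evidence. The others with the smallest p were Fbxl21 with the diet (-0.19 ± 0.08), Btrc (-0.21 ± 0.09) and Rorb (0.17 ± 0.09) with extract on the diet, and Gsk3b with extract against the regular diet (0.20 ± 0.10). Of the 14 regulators, 3 lay under 4.74 in every array. Fbxl21 (4.20 to 4.61) and Rorb (3.42 to 3.80) were among them, so their values are not told from background. By number, array 1 was the lowest in all 3 groups for 5 of the 14 and the highest in all 3 for 0. Over all genes 7.33% met either condition. Among the 5 were Ciart, a repressor of the activator (-0.84 ± 0.22), and Cry2, the other cryptochrome (-0.27 ± 0.07).

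**Figure D5:**
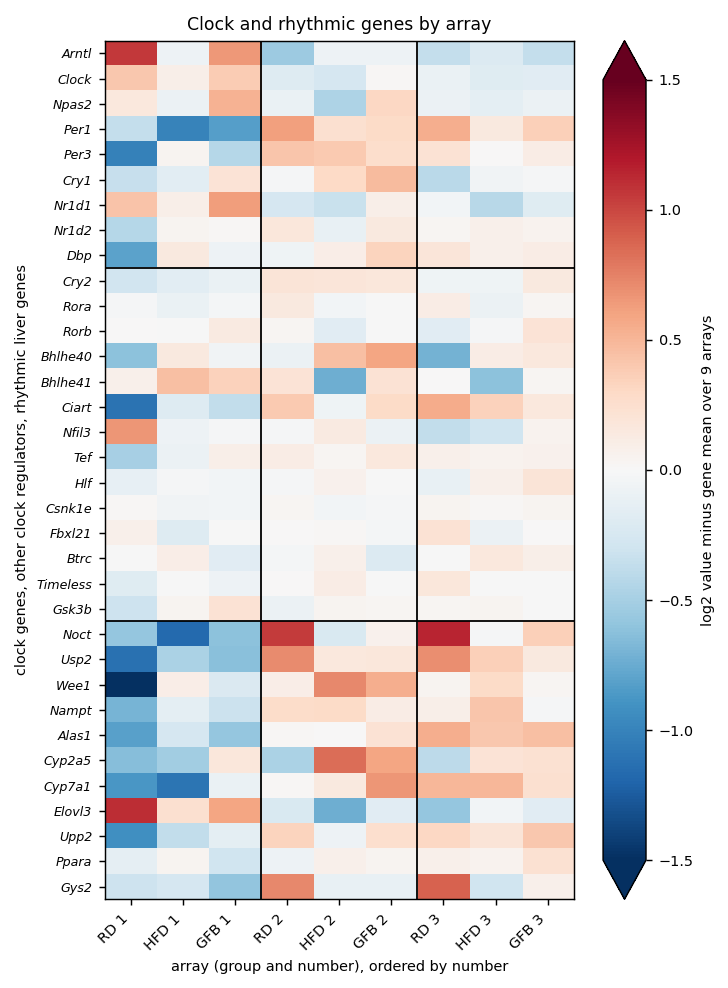
Log2 value minus the mean of the gene over 9 arrays (colour) for the 9 clock genes, 14 further regulators and 11 rhythmic liver genes, with the arrays ordered by number. Regular-diet array 1 stands out, with Arntl at 6.09 against 4.50 to 5.69 elsewhere, and Noct and Usp2 are low in all 3 arrays numbered 1.

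The rhythmic genes, and genes that report signals acting on the liver clock, were described by comparison from the same fit. Of the 11 rhythmic liver genes, the 9 glucocorticoid-induced and the 7 temperature-responsive genes measured, none passed in any comparison, with 2, 0 and 1, then 4, 1 and 2, then 3, 2 and 2 at an unadjusted p under 0.05. Among the rhythmic genes the smallest p belonged to Cyp2a5 with the diet (0.68 ± 0.28) and with extract against the regular diet (0.83 ± 0.28), and to Nampt with extract on the diet (-0.26 ± 0.25). On the regular diet Cyp2a5 read 4.28, 4.44 and 4.53, all under 4.74, so both of its differences are taken from values near background. Among glucocorticoid-induced genes the smallest p belonged to Mt2, a metallothionein, with the diet (1.51 ± 0.39, adjusted p = 0.119 by limma) and with extract against the regular diet (1.28 ± 0.39), and to Fkbp5 with extract on the diet (0.42 ± 0.14). Temperature-responsive genes were all 7 lower on the high-fat diet, with a median of -0.33, where 11063 of 22180 genes were lower. With extract against the regular diet all 7 were lower too, with a median of -0.27, where 11012 genes were lower. Hspa1a, 1 of the 7, lay under 4.74 in every array (3.51 to 4.24). The temperature list joins the cold-induced Cirbp (-0.26 ± 0.10 with the diet) with heat shock genes, so its shared direction is not read as 1 response to temperature. Hspa8, a heat shock cognate, stood at -0.34 ± 0.10 with the diet (adjusted p = 0.159 by limma). Hsph1 stood at 0.50 ± 0.18 with extract on the diet, and Hspa1b at -1.17 ± 0.39 with extract against the regular diet. Of 10 measured genes that follow fasting or feeding, 9 were lower on the high-fat diet, with a median of -0.54. With extract against the regular diet 9 were lower, with a median of -0.55. Over all genes 11063 and 11012 of 22180 were lower in these 2 comparisons. Only Srebf1 was higher, at 1.05 ± 0.26 and 0.82 ± 0.26 (adjusted p = 0.098 and 0.25 by limma). The list joins genes that follow fasting with genes that follow feeding, so its median is not that of 1 response. At an unadjusted p under 0.05 the counts were 7 with the diet, 1 with extract on the diet and 6 with extract against the regular diet, beside 13.3%, 5.98% and 12.0% of all genes. Only Cyp4a14, a fatty acid hydroxylase with near-identical paralogs, passed, and it was lower with the diet (-0.98 ± 0.19, adjusted p = 0.0411 by limma). With extract on the diet it stood at 0.55 ± 0.19. Fgf21, a fasting hormone, stood at -1.03 ± 0.21 with extract against the regular diet (adjusted p = 0.089).

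Markers of cell types were read by array number and by group. All 7 Kupffer cell markers were lower in array 1 than in arrays 2 and 3 on average, with a median of -0.36. Over all genes 10710 of 22180 were lower. On the high-fat diet Marco (0.21), Timd4 (0.05), Vsig4 (0.02) and Clec4f (0.01) were not lower in array 1. Array 1 was the lowest in all 3 groups for 3 of the 7. Over all genes 7.33% had array 1 highest or lowest in all 3 groups. The mean level of the 7 markers was lowest in array 1 of each group, at 6.35 on the regular diet, 6.56 on the high-fat diet and 6.42 with extract. The highest arrays of these groups stood at 7.05, 6.86 and 6.96. Of the fasting and feeding genes 8 of 10 were lower in array 1. For 4 of the 10 array 1 was the lowest in all 3 groups, beside the same 7.33% of all genes for highest or lowest. Of the glucocorticoid-induced genes 5 of 9 were lower in array 1, with a median of -0.03. That list moved both ways, with 2 of 9 among the 100 smallest p: Tat, a tyrosine aminotransferase (-0.38, rank 56), and Cdkn1a, a cell cycle inhibitor (0.60, rank 58). Of the temperature-responsive genes 5 of 7 were lower in array 1, with a median of -0.07, and Hspa1b, a heat shock protein with the near-identical copy Hspa1a, stood at -0.77 ± 0.11 (rank 8, adjusted p = 0.415 by limma). Hepatocyte markers had a median of -0.01. By group, markers of 2 lists passed with the diet: Col1a1 (0.85 ± 0.12, adjusted p = 0.015 by limma) and Col3a1 (1.14 ± 0.14, adjusted p = 0.012), collagens made by stellate cells, rose, and Cps1, a urea cycle enzyme of hepatocytes, fell (-0.66 ± 0.11, adjusted p = 0.022). The other 5 stellate cell and 8 hepatocyte markers did not pass, and no marker of any list passed with extract in either comparison. With extract on the high-fat diet Col1a1 stood at -1.045 ± 0.121 and Col3a1 at -1.152 ± 0.143 (adjusted p = 0.085 and 0.098 by limma). Of the 7 stellate cell markers 5 were higher and 2 lower in that comparison. An unadjusted p under 0.05 was reached by 6 of the 7, beside 5.98% of all genes. The stellate cell and hepatocyte lists both moved both ways with the diet. Of 7 stellate cell markers 3 were higher and 4 lower, with a median of -0.14. The lower ones were Dcn (-0.38 ± 0.11), Hgf (-0.29 ± 0.09), Lrat (-0.15 ± 0.12) and Reln (-0.14 ± 0.10). Of 9 hepatocyte markers 5 were higher and 4 lower, with a median of 0.02. The part of any of these in the clock gene values was not tested.

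The genes most like Arntl and Dbp over the 9 arrays were listed from 10376 genes with a mean above 4.74, as a description. Asap2 (r = 0.967), Dpp9 (0.957), Gldc (0.945), Mad2l2 and Rsf1 (0.941 each) followed Arntl most closely, and Ssu72 (-0.959), Tnfrsf1b (-0.958), Ripor2 (-0.951), Mcoln1 (-0.948) and Tspan4 (-0.939) ran most opposite. Gldc, the glycine cleavage decarboxylase, read 9.21, 7.59 and 7.85 on the regular diet, 8.35, 8.30 and 8.49 on the high-fat diet, and 8.95, 8.24 and 7.87 with extract, so that its highest arrays were those of Arntl. Dock8 (0.971), Siglec1 (0.959), Bloc1s1 and Cherp (0.947 each) and Akap8 (0.946) followed Dbp most closely. Tiprl (-0.976), Pcnp (-0.957), Gip (-0.950), Fzd5 (-0.948) and Eml3 (-0.943) ran most opposite to Dbp. Regular-diet array 1 was the highest of the 9 for Arntl and the lowest for Dbp, and leaving it out of these correlations was not tested.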

How the data were processed

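The values, 1 per probe set and array, were deposited on the log2 scale. The submitters' processing notes name RMA and oligo, without versions. As background, RMA includes a quantile step, which removes shifts shared by most genes. No genome build was given for the probe sets. Of 41345 probe sets, 23521 had 1 symbol in the platform annotation, 1814 several and 16010 none. For a gene with several single-symbol probe sets the brightest was used, which left 22180 genes.

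All 9 arrays entered a single limma (3.58.1, R 4.3.3) fit of the group, with 6 residual and 3.28 prior degrees of freedom, Benjamini-Hochberg adjustment over all genes, two-sided. An exact permutation test of 3 against 3 arrays cannot go below p = 0.1 and was not used. The genes and lists were chosen with earlier results of these data known. Named besides the members were, of the lists that are no cell type markers, genes that passed, or otherwise the 2 regulators and 1 gene of each other list with the smallest p, and the 5 genes most and least correlated with Arntl and Dbp. Genes of the array-number comparison, markers, and Bhlhe40 and Gldc array by array, were named after their values were seen. The alternatives were a variance trend with robust fitting, brighter genes only, the mean of probe sets, quantile normalization, a median shift, array weights, the array number as a block, only the 6 arrays compared, and each array left out. The fit was tested on simulated data. The fit of the number and the one without the 3 arrays numbered 1 were chosen after seeing the data.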

Additional observations from a re-analysis of the deposited data

How the results depend on the processing

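No clock gene passed in any of the 3 comparisons or in the F test under any alternative run, and of 483 recomputed log2 fold changes 453 kept their sign, while 30 turned. Signs turned with array weights for Per1 with extract on the diet (-0.014) and Per3 with extract against the regular diet (-0.036). Without the 3 arrays numbered 1, an alternative chosen after seeing the data, they turned for Arntl with the diet (0.31) and with extract on the diet (-0.077), for Nr1d2 with the diet (-0.12) and with extract against the regular diet (-0.002), and for Per3 in those same comparisons (-0.12 and -0.13). When each array was left out in turn, differences with the diet ranged from -0.47 to 0.33 for Arntl, -0.26 to 0.036 for Clock, -0.17 to 0.55 for Per3 and -0.10 to 0.20 for Nr1d2, and kept their sign for Per1 (-0.79 to -0.078), Nr1d1 (-0.42 to -0.075), Npas2 (-0.30 to -0.11), Cry1 (0.14 to 0.40) and Dbp (0.044 to 0.54). With extract on the diet they ranged from -0.10 to 0.41 for Arntl, -0.25 to 0.53 for Per1, -0.31 to 0.042 for Per3 and -0.084 to 0.12 for Dbp, and kept their sign for Clock (0.036 to 0.31), Npas2 (0.35 to 0.65), Cry1 (0.071 to 0.34), Nr1d1 (0.17 to 0.58) and Nr1d2 (0.008 to 0.11). With extract against the regular diet they ranged from -0.28 to 0.52 for Arntl, -0.11 to 0.22 for Clock, -0.64 to 0.051 for Per1, -0.34 to 0.38 for Per3, -0.092 to 0.33 for Nr1d1 and -0.031 to 0.27 for Nr1d2, and kept their sign for Npas2 (0.12 to 0.42), Cry1 (0.35 to 0.60) and Dbp (0.065 to 0.56).

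With the replicate number as a block, 0 of 9 clock genes passed in each comparison, the smallest adjusted p being 0.0641 for Per1 with the diet (-0.48 ± 0.09) and 0.0968 for Cry1 with extract against the regular diet (0.48 ± 0.09). Over all genes the deviations of same-numbered arrays from their group means correlated at -0.05 to 0.17, with 1 of 9 pairs over 0.1, and those of differently numbered arrays at -0.13 to 0.13, so the number alone was not taken to pair the arrays. The count of all genes called moved from 297 to between 15 (only the 6 arrays compared) and 597 (brighter genes) with the diet, and was 452 without regular-diet array 1 and 58 without array 2. It moved from 1 to between 0 and 4 with extract on the diet, from 98 to between 2 (without extract array 2) and 267 (without regular-diet array 1) with extract against the regular diet, and from 173 to between 12 and 396 in the F test. By number, the count of members that passed was 1 under the 6 other settings and 0 without any 1 array. The count of members with array 1 at the edge of every group was 4 or 5 of 9, and of rhythmic genes 9 or 10 of 11.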

Other observations

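Values equal to every deposited digit in at least 3 arrays occurred for 7574 of 22180 genes (34.1%), among them Arntl (4.96 in high-fat diet arrays 1 and 2 and extract array 2) and Npas2 (4.17 in regular-diet array 3, high-fat diet array 1 and extract array 3).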
